A study of Homo sapiens with 30 samples.

Results

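The regions described here are the places where ChIP-seq with an antibody against MBD3 gave peaks in HEK293T cells whose CTCF can be degraded. They come from a list of cells grown with indole-3-acetic acid (IAA, an auxin) and a list of cells grown without it. Overlapping rows of a list, by 1 bp or more, were merged, which left 50 MBD3 regions with IAA, from 59 rows, and 6608 without IAA, from 6736 rows. These 6658 are part of 70565 regions in the 8 lists of the study, which also cover CTCF, TET1 and TET2. A region is called kept when it shared at least 1 bp with the MBD3 list of the other condition, lost when it was in the list without IAA alone, and IAA-only when it was in the list with IAA alone. There were 38 IAA-only, 12 kept and 6596 lost regions, and the 12 kept ones pair 1 to 1 between the lists.

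Cells with IAA received 0.5 mM IAA for 72 h, and cells without IAA received fresh medium lacking it. A label gives DMSO for cells without IAA, which the protocol does not mention. Both groups were HEK293T cells, an immortalised human embryonic kidney line, with an edit at CTCF, and both had been transfected with plasmids for ScFv-miniIAA7-mEGFP and AtAFB2-mCherry, so the degron parts were present with and without IAA and only in cells that took up the plasmids. Each group had 3 samples, which were pooled before peaks were called. No list holds a value per sample, so nothing below carries an error between cultures, and the difference in region number could not be tested over replicates. Ranges given with shares are Wilson 95% intervals and those given with medians are 95% order-statistic intervals; both cover counting error over regions only. The read depth behind the lists is unknown, and positions are those of the lists, in the build hg19, counted from 1.

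MBD3 belongs to NuRD, the nucleosome remodelling and deacetylase complex, which combines ATP-driven nucleosome remodelling with removal of acetyl groups from histones. By sequence it is of the methyl-CpG-binding domain family, but the mammalian protein binds methylated DNA poorly compared with its relative MBD2. CTCF is a zinc-finger protein that marks loop anchors and insulators, and TET1 and TET2 oxidise methylated cytosine. In an auxin degron, IAA bridges the tagged protein to an F-box receptor, and the protein is then sent to the proteasome.

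Of the 50 regions with IAA, 12 also stood in the list without IAA, or 24% (14.3% to 37.4%). Of the 6608 regions without IAA, the same 12 made up 0.182% (0.104% to 0.317%). That share was 0.791% at −log10 q of at least 10 in both lists, 0.386% over single rows, 14%, or 7 of 50, between equal numbers of regions of highest −log10 q, and 0% at a fold of at least 5. For the other antibodies, the share of the list with IAA that had also been called without it was 85.7% for CTCF, 11.1% for TET1 and 0.199% for TET2. The share of the list without IAA that was called again with IAA was 0.126% for CTCF, 0.222% for TET1 and 0.452% for TET2. Seen from the lists with IAA, MBD3 thus stood below CTCF and above TET1 and TET2, while nearly all of each list without IAA went uncalled. With IAA the lists held 63 CTCF, 325 TET1 and 3022 TET2 regions, and without IAA 42925, 16246 and 1326. The TET2 list was thus the longer with IAA, unlike the lists of the other antibodies. Lists of such unequal length limit how much overlap is possible, and no difference between antibodies was tested.

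The kept regions were low in fold enrichment and mostly high in −log10 q. Both are the values that the authors' peak caller gave each region and describe order within a list only. In the list without IAA the 12 kept regions ranked 6566 to 6599 of 6608 by fold, with folds of 1.35 to 2.12, while by −log10 q they ranked 1 to 1138, with a median rank of 42. In the list with IAA they ran from 1.18 to 2.16 in fold and from 1.48 to 291.3 in −log10 q, with a median −log10 q of 20.6. The mitochondrial region at 16204 to 16472 had the lowest −log10 q of that list. The lost regions ran from 1.14 to 16.7 in fold, with a median of 5.41 (5.38 to 5.47) and a median −log10 q of 5.20. Kept regions therefore sat in a corner of the list without IAA that few lost regions shared, as the plot of fold against −log10 q shows.

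**Figure D1:**
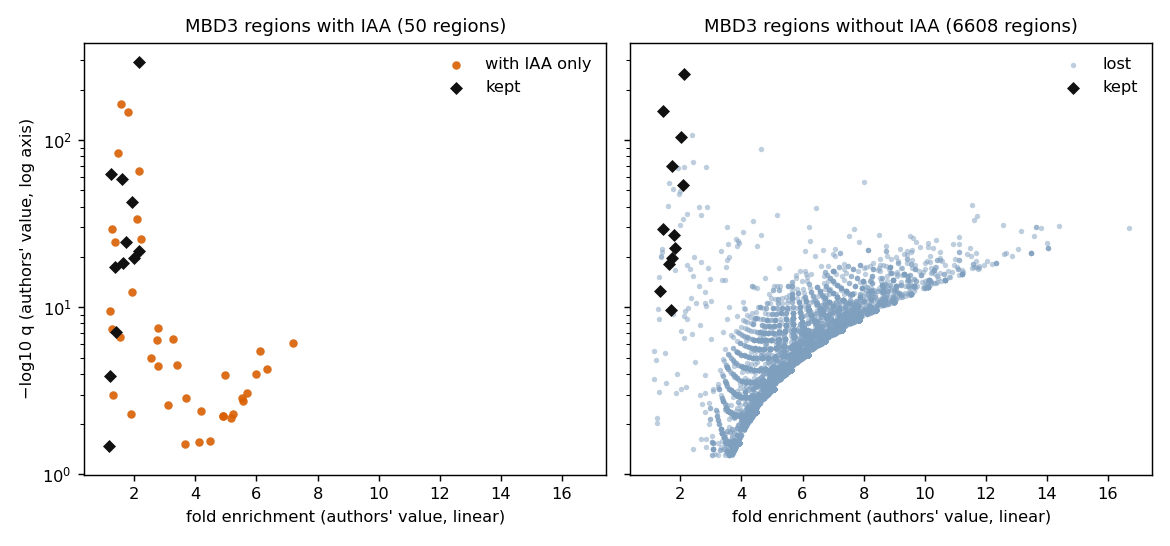
Fold enrichment (linear axis) against −log10 q (log axis) for each MBD3 region, with IAA on the left and without IAA on the right; black diamonds are the 12 kept regions, orange points the 38 IAA-only regions and blue points the 6596 lost regions. Kept regions lie at folds of 1.18 to 2.16 with IAA and 1.35 to 2.12 without IAA, while most lost regions lie along a curve on which −log10 q climbs with fold.

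Kept regions fell on 5 nuclear chromosomes and on mitochondrial DNA. On chromosome 19, 27731970 to 27732305 with IAA faced 27731965 to 27732321 without IAA, and this region had the highest −log10 q of both lists, 291.3 with IAA and 248.5 without IAA. On chromosome 1, 121485098 to 121485363 with IAA faced 121485051 to 121485392 without IAA, with a −log10 q of 62.7 with IAA and 149.8 without IAA. On chromosome 9, 67320535 to 67320893 with IAA faced 67320522 to 67320886 without IAA. At these 3 regions CTCF and TET1 were called in both conditions, and TET2 was called without IAA alone.

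Chromosomes 2 and 10 held 3 kept regions each. On chromosome 2 they began at 92316210, 92318840 and 92320368 with IAA, against 92316215, 92318828 and 92320349 without IAA. On chromosome 10 they began at 42398553, 42400212 and 42529324 with IAA, against 42398542, 42400209 and 42529302 without IAA. TET1 and TET2 had been called without IAA at all 6, and CTCF at 2 of them, both on chromosome 10. With IAA, TET1 was called at 5 of the 6, CTCF at 3 and TET2 at 1, the first on chromosome 2. The CTCF calls with IAA were at the same 2 regions on chromosome 10 and at the third on chromosome 2, where CTCF was not called without IAA.

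The 9 nuclear pairs had close summits and less even ends. The summits lay 4 to 30 bp apart, with a median of 8 bp. The ends differed more, most on chromosome 10, where the region starting at 42529324 was 169 bp with IAA and its partner starting at 42529302 was 313 bp without IAA. The region was wider without IAA in 7 of the 9, the exceptions being 562 bp with IAA against 466 bp without IAA on chromosome 2, and 502 bp against 498 bp on chromosome 10. The deposited fold was higher in the list with IAA for 3 of the 9, but folds of separate lists are not on a common scale and no change is read from them.

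The mitochondrial pairs were looser. With IAA, MBD3 covered 1243 to 1470, 3644 to 3931 and 16204 to 16472 of the mitochondrial genome, 785 bp in all, or 4.75% of the 16522 bp up to the highest listed position. Without IAA, 14 regions covered 8981 bp, or 54.4% of it, of which 3 were kept and 11 lost. Summits of the 3 pairs lay 27 to 406 bp apart, and the closest call among the kept regions was here, where 3644 to 3931 with IAA and 3865 to 4172 without IAA shared 67 bp. Folds were 1.18 to 1.37 with IAA and 1.21 to 2.01 without IAA. CTCF had no mitochondrial region in either condition, while TET1 and TET2 were called without IAA at all 14.

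Just outside the rule for keeping stood 4 IAA-only regions within 1 kb of a region without IAA, and 7 lost regions within 1 kb of a region with IAA. Of those 7 lost regions, 3 were mitochondrial and 4 lay at the CTCF-free stretches described below. The nearest miss was on chromosome 7, where 61969410 to 61969610 with IAA adjoined 61969244 to 61969409 without IAA and shared no base with it. Within 10 kb, 9 of the 38 IAA-only regions had a region without IAA, and 24 of the 6596 lost regions had a region with IAA. The median distance of the 37 IAA-only regions that had a region without IAA on the same sequence was 59.2 kb. Inside the list without IAA, the median distance to the nearest other region was 71.5 kb, and 17.2% had one within 10 kb. The 59.2 kb is a distance between lists and the 71.5 kb a spacing within a list, so no likeness in position is read from them.

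By median, kept regions were wider than the IAA-only and the lost regions, each taken as a whole. IAA-only regions had a median width of 213 bp (190 to 259) and lost regions 188 bp (187 to 190). The 12 kept regions had a median of 278.5 bp (233 to 359) in the list with IAA and 361 bp (308 to 498) in the list without IAA. Among lost regions the median was 377 bp (206 to 748) for the 11 on mitochondrial DNA. It was 179.5 bp (171 to 203) for those at the CTCF-free stretches described below. Of the IAA-only regions 7 reached 300 bp, or 18.4%, against 4 of the 12 kept regions in the list with IAA, 11 of 12 kept regions in the list without IAA and 765 lost regions, or 11.6% (10.8% to 12.4%). The narrowest region was 163 bp with IAA and 149 bp without IAA.

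Many kept regions held several summits. Rows that were joined had the same start and end, so joining added no width, and a region of several rows is 1 interval with several summits. In the list without IAA, 7 of the 12 kept regions had several rows, against 106 of the 6596 lost ones, or 1.61%. The kept mitochondrial regions were all among the 7. Lost regions in like places had several rows more often than lost regions as a whole. They were 5 of the 11 on mitochondrial DNA, or 45.5%, and 7.89% of those at the CTCF-free stretches described below. The widest kept region, at 461 to 3465 of the mitochondrial genome, was 3005 bp with 7 rows. Across the 113 regions of several rows without IAA, neighbouring summits were a median of 223.5 bp apart (quartiles 174.8 and 302). Of the IAA-only regions, 4 had several rows.

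**Figure D2:**
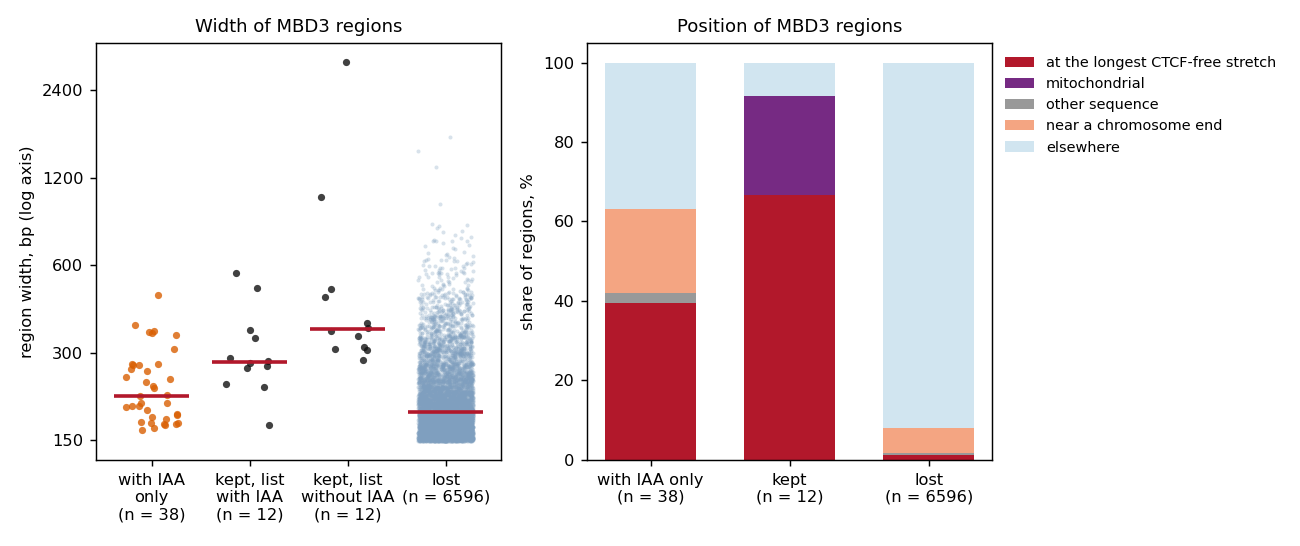
Left, width in bp on a log axis of every MBD3 region by class, with points spread sideways for visibility and a red line at the median (213, 278.5, 361 and 188 bp from left to right). Right, share of each class by position: 39.5% of IAA-only, 66.7% of kept and 1.15% of lost regions lay at the longest CTCF-free stretch of their chromosome.

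Most kept and many IAA-only regions lay at the longest CTCF-free stretch of their chromosome. For each of chromosomes 1 to 22 and X this is the longest interval with no CTCF region in cells without IAA, from 3.10 Mb on chromosome 17 to 21.1 Mb on chromosome 1, and a region counts as at the stretch when inside it or within 1 Mb. Centromeres and the satellite repeats beside them, which are hard to assemble and to map reads to, are known to leave long intervals of this kind. At the stretches lay 15 IAA-only regions, or 39.5% (25.6% to 55.3%), 8 of the 12 kept regions, or 66.7% (39.1% to 86.2%), and 76 lost regions, or 1.15% (0.922% to 1.44%). A higher share at the stretches was common to the lists with IAA. It was 46% for all MBD3 regions with IAA and 1.27% for all without IAA, 25.4% and 0.995% for CTCF, 16.3% and 1.08% for TET1, and 7.48% and 2.94% for TET2, each pair being with IAA and then without IAA. Whether MBD3 differs from the other antibodies in this was not tested.

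The stretch is drawn from CTCF regions, and its last base lies beside one. In the list without IAA, 3 kept nuclear regions overlapped that CTCF region and reached into the stretch, and so lay at 0 kb. They were on chromosomes 1, 10 and 19, and their partners with IAA lay 0.00200 to 0.0120 kb from the stretch. The other 5 at the stretches were 1.66 to 130.8 kb away. The kept region on chromosome 9 lay 1742 kb from its stretch, past the limit of 1 Mb, and was the 1 kept nuclear region away from the stretches. The other 3 were on mitochondrial DNA.

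Chromosome 10 held 11 of the 50 regions with IAA, and 8 of them stood between 42395994 and 42599834. These 8 were made up of 5 IAA-only and 3 kept regions, of which 5 fell in a run ending at 42400713. The IAA-only region at 42596962 to 42597151 had a −log10 q of 163.6 at a fold of 1.55, and that at 42395994 to 42396166 had 146.4 at 1.78. At both, CTCF, TET1 and TET2 were also called with IAA and none of the 3 without IAA. Chromosomes 3, 12, 15, 22 and X had no MBD3 region with IAA.

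IAA-only regions with and without another antibody at the same place had different values. With another antibody called at the same place with IAA there were 25, and without one there were 13. The 25 had a median fold of 2.15, a median −log10 q of 6.60 and a median width of 243 bp. TET1 was called with IAA at 21 of them, TET2 at 19 and CTCF at 7. The 13 with MBD3 alone had folds of 4.11 to 7.19, with a median of 5.24, a median −log10 q of 2.75, a highest −log10 q of 6.15 and a median width of 183 bp.

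They also differed in position. None of the 13 regions with MBD3 alone lay at a CTCF-free stretch, and none had another MBD3 region within 100 kb. All 16 IAA-only regions at a stretch or on an unplaced sequence had another antibody with IAA, and their folds reached 3.41 at most. Of the 22 others, 9 had another antibody with IAA. None of these 22 had another MBD3 region within 100 kb, so isolation did not set the 13 apart from the 9. Since all lists with IAA are from cells of the same treatment, and fold and −log10 q helped to call the regions, these are descriptions of the list and were not tested.

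By fold, the IAA-only list was led by regions with MBD3 alone, which made up 9 of the first 10. The highest stood at chr10:105668146-105668340, with a fold of 7.19 and a −log10 q of 6.15, 11.8 kb from a lost region. Then came chr10:110807589-110807765 at 6.33, chr11:126096095-126096321 at 6.12 and chr1:225841385-225841581 at 5.97. TET1 was called with IAA at the one on chromosome 11, and no other antibody was called at the other 3. After them stood chr10:13085325-13085494 at 5.69, chr20:57606834-57607016 at 5.56 and chr16:87812704-87812978 at 5.53. The one on chromosome 16 was the only IAA-only region where CTCF had been called without IAA. The last of the 10 were chr13:65053647-65053809 at 5.24, chr6:111413886-111414065 at 5.15 and chr7:155947881-155948188 at 4.97. All 10 lay away from the CTCF-free stretches, in contrast with the regions of high −log10 q.

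Among the lost regions, fold and −log10 q picked different places. The 10 of highest fold and the 10 of highest −log10 q had no region in common, and the 100 highest by each had 33 in common. The 10 of highest fold, from 16.7 to 13.6, all carried CTCF and TET1 without IAA, and none lay at a stretch, on mitochondrial DNA or on an unplaced sequence. The 10 of highest −log10 q all carried TET1 and TET2, 4 carried CTCF, and 8 lay at a stretch or on mitochondrial DNA.

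The fold list began with chr4:25314153-25314579 at 16.7, then chr1:23866361-23866592 at 14.4. At a fold of 14.0 followed chr1:66708420-66708649, chr1:68001166-68001363, chr17:32527040-32527259 and chr2:178029383-178029646. At 13.8 and 13.6 came chr17:36823856-36824067, chr1:147553565-147553747, chr12:7033521-7033734 and chr5:92370890-92371298. TET2 had been called at the one on chromosome 5 alone. No antibody was called at any of the 10 with IAA.

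The −log10 q list began with chr11:51579505-51579681 at 107.4, chr2:92325058-92325262 at 102.3 and chr8:43092876-43093150 at 88.6. These are all at a stretch, with folds of 2.39, 2.09 and 4.63. At chr11:51590347-51590634, with a −log10 q of 73.7, CTCF and TET1 were still called with IAA. The remaining regions stood at 69.3 to 52.7 and lay on chromosomes 4, 2, 7 and 10 and on mitochondrial DNA. The highest fold among the 10 was 8.00, at chr7:102212966-102213165, which with the one at chr4:68265509-68265685 was away from any stretch.

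The 5 widest lost regions were not the highest by either measure. The widest, chr5:10082-11740, was 1659 bp with 4 rows, with a fold of 3.34, and lay within 5 Mb of the chromosome end. TET2 was called there in both conditions. Next were chr17:80317361-80318837, at 1477 bp and a fold of 9.42 with TET1 and TET2 but no CTCF, and chr1:236877018-236878323, at 1306 bp with all 3. The last were chr4:175077939-175078915, at 977 bp, and chr6:37104913-37105745, at 833 bp, each with CTCF alone.

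Lost regions differed with the antibodies called at them without IAA. CTCF and TET1 were both called at 3368, CTCF without TET1 at 354, TET1 without CTCF at 394 and neither at 2480. At 2335 no other antibody was called. Median width was 179.5 bp with CTCF and TET1, 190 bp with CTCF without TET1, 247 bp with TET1 without CTCF and 201 bp with neither. Median fold was 6.04 with CTCF and TET1, 5.05 with CTCF without TET1, 5.31 with TET1 without CTCF and 4.94 with neither. The sites shared with both proteins were thus the narrowest and the highest in fold, and those with TET1 without CTCF were the widest, with 33.8% at 300 bp or more and TET2 at 28.9%.

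Most lost regions stood alone at short range. Another MBD3 region of the list without IAA lay within 10 kb of 1125 of the 6596 lost regions, or 17.1% (16.2% to 18.0%), and within 100 kb of 3829, or 58.1%. In the list with IAA, another region lay within 10 kb of 8 of the 38 IAA-only regions, or 21.1%, and of 7 of the 12 kept regions. In the list without IAA, another region of that list lay within 10 kb of 11 of the 12 kept regions. For CTCF, TET1 and TET2 without IAA the share within 10 kb was 39.8%, 24.7% and 12.2%, lists of 42925, 16246 and 1326 regions. The number of regions in a list sets such shares in part, which makes the 21.1% of the short list with IAA and the 17.1% of the long one different in kind. In the list with IAA, 11 regions stood in 3 groups of at least 3 within 10 kb of each other, and 35 of the 50 stood alone.

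Within the lost regions, neighbours were more frequent away from CTCF. A neighbour within 10 kb was found for 11.5% of those with CTCF and TET1, 16.1% with CTCF without TET1, 30.2% with TET1 without CTCF and 22.7% with neither. Seen from the spacing, CTCF had been called at 39.4% of the 1125 lost regions with a neighbour within 10 kb, 55.8% of the 2704 whose nearest was 10 to 100 kb off and 63.9% of the 2767 with none within 100 kb. The share at CTCF thus climbed with isolation. Most lost regions away from CTCF also lay more than 10 kb from the nearest CTCF region. Among the 2853 on chromosomes 1 to 22 and X, it was a median of 20.6 kb away (quartiles 7.56 and 47.2). Of the 2853, 5.54% had a CTCF region within 1 kb and 31.0% within 10 kb. No expected distance was computed.

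**Figure D3:**
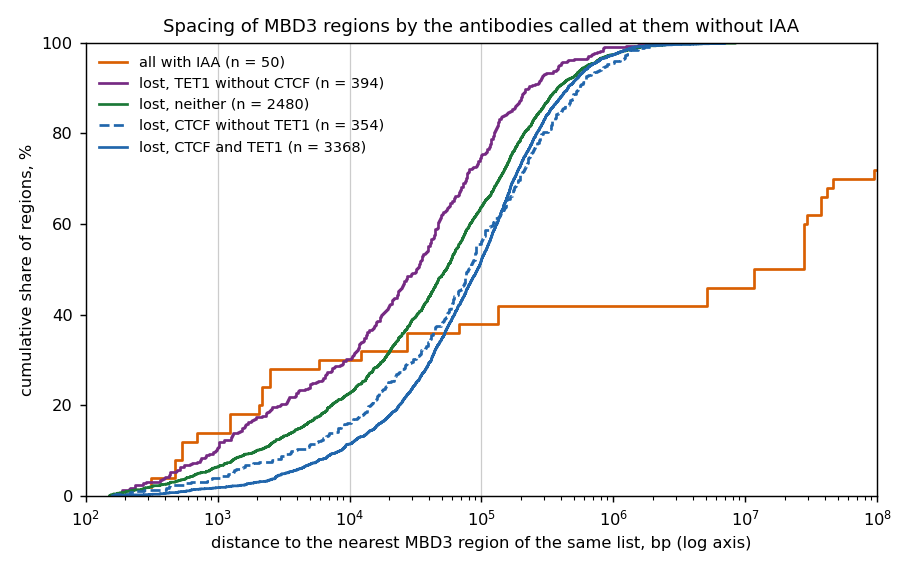
Cumulative share of MBD3 regions (percent) by distance to the nearest MBD3 region of the same list (bp, log axis), for all 50 regions with IAA and for lost regions by the antibodies called at them without IAA; grey lines mark 1, 10 and 100 kb, and regions with no other on their sequence never enter the curve. At 10 kb the curve for TET1 without CTCF stands at 30.2%, that for neither at 22.7% and that for CTCF and TET1 at 11.5%.

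Without IAA the 6608 regions formed 5975 clusters when neighbours up to 10 kb apart were joined. Of these, 5472 were single regions, 428 were pairs and 75 held at least 3, with 280 regions in all. The 2 largest held 14 regions each, the mitochondrial genome and an array on the X chromosome. Then came 7 regions at chr11:51579505-51590634, at the CTCF-free stretch, with none kept. Clusters of 6 regions followed at chr19:50595853-50615943, chr9:82275707-82289235 and chr2:92305603-92325262. On chromosome 19 all 6 carried CTCF and TET1, on chromosome 9 none carried CTCF and 3 carried TET1, and on chromosome 2 all 6 carried TET1 and TET2, 1 carried CTCF and 3 were kept. Close clusters of MBD3 thus occurred with CTCF at every region and with CTCF at none.

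The X chromosome array was evenly spaced. Its 14 regions ran from 114960472 to 114999494, and the 13 distances between neighbouring summits were 2962 to 3016 bp, with a median of 2983 bp. Folds were 2.80 to 5.17, −log10 q was 12.4 to 35.4 and widths were 196 to 289 bp. CTCF and TET1 each had 14 regions in this span without IAA, 1 at each MBD3 region, and TET2 had none. With IAA the span held 2 CTCF, 3 TET1 and 1 TET2 region and no MBD3 region, so 5 of the 14 sites were called again with CTCF or TET1 and none with MBD3. The DXZ4 macrosatellite, a tandem repeat on the long arm of the X chromosome, is known to bind CTCF in its units, but no annotation of this build was used and these regions were not matched to it.

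**Figure D4:**
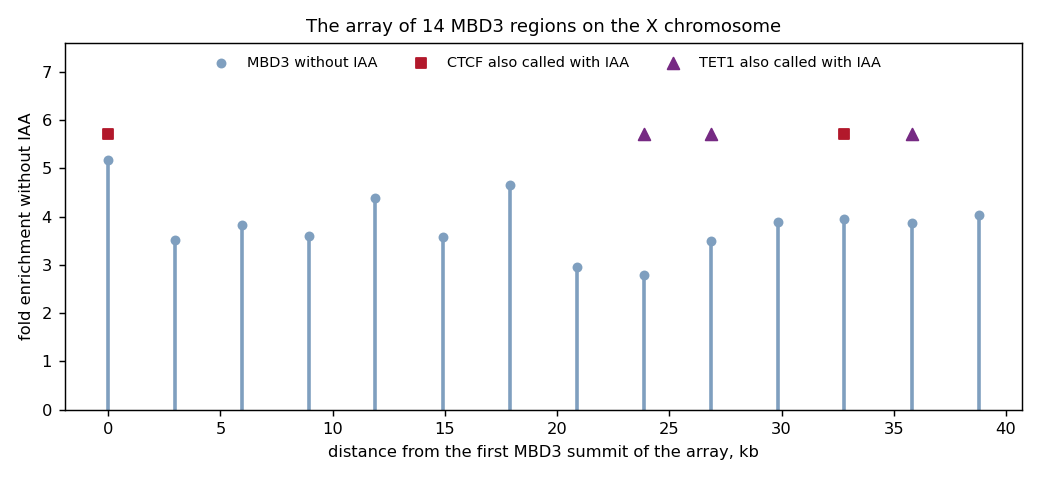
Fold enrichment of the 14 MBD3 regions of the X chromosome array without IAA against distance from the first summit (kb); squares mark the 2 where CTCF and triangles the 3 where TET1 was also called with IAA. Folds lie between 2.80 and 5.17, at steps of 2962 to 3016 bp.

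At a longer range MBD3 regions gathered in broad clusters that held CTCF less often than the other regions, with wide differences between clusters. Joining neighbours up to 100 kb apart gave 4088 clusters, of which 2768 were single regions. The largest lay at chr13:67093649-67812695, with 37 regions over 719.0 kb, of which 7 carried CTCF and 9 TET1. It was followed by chr14:68287371-68774109, with 18 regions of which 3 carried CTCF, and chr9:82061382-82383405, with 15 of which 3 did. The 14 regions at chr13:72049172-72453611 included 1 with CTCF. On chromosomes 1 to 22 and X, clusters of at least 10 regions numbered 17, and 36.8% (30.8% to 43.3%) of their 228 regions carried CTCF, against 57.2% (56.0% to 58.4%) of the other 6340. Some clusters of that group ran the other way. CTCF was called at 10 of 13 regions of chr15:66790142-67239306 and at all 15 of the cluster that holds the X array. At chr10:73631025-74124302 it was called at 5 of 12, below the 57.2% of the other regions.

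Chromosomes 1 to 22 and X differed in the density of MBD3 both away from CTCF and at CTCF. Away from CTCF, MBD3 had 2.11 regions per Mb on chromosome 10, 1.74 on chromosome 13 and 1.72 on chromosome 6, against 0.199 on chromosome 16, 0.254 on chromosome 22 and 0.271 on the X chromosome. At CTCF, MBD3 had 2.80 regions per Mb on chromosome 17 and 0.540 on chromosome 21. Per 100 CTCF regions, those at CTCF ran from 5.85 on chromosome 18 to 13.1 on chromosome 10. The share of MBD3 regions at CTCF was 35.7% (30.6% to 41.2%) on chromosome 13 and 38.4% (30.3% to 47.2%) on chromosome 18, while it was 86.7% (80.8% to 91.0%) on chromosome 19 and 85.6% (78.4% to 90.7%) on chromosome 16. The densities per Mb take the highest listed position as the length, so the CTCF-free stretches count in them. The stretch made up 9.58 Mb of 48.1 Mb on chromosome 21 and 19.2 Mb of 115.1 Mb on chromosome 13. Densities without the stretches were not computed, and the order of chromosomes may depend on them. HEK293T cells are known to carry extra copies of some chromosomes, and the part of copy number in these densities was not tested.

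**Figure D5:**
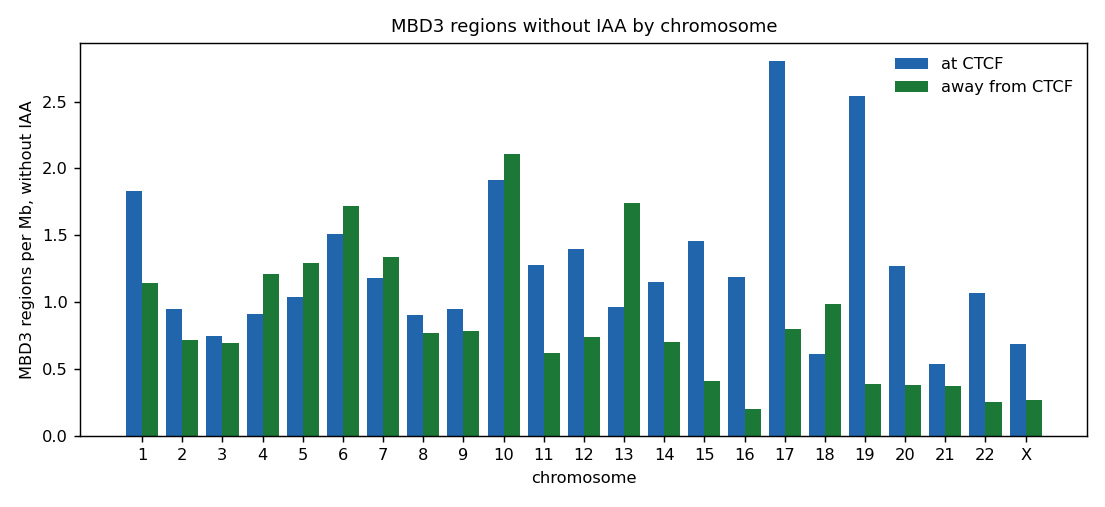
MBD3 regions without IAA per Mb on chromosomes 1 to 22 and X, split into regions at CTCF (blue) and away from CTCF (green). The length of a chromosome is its highest listed position, with CTCF-free stretches included. Away from CTCF the density runs from 0.199 on chromosome 16 to 2.11 on chromosome 10.

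Regions near chromosome ends were found among IAA-only and lost regions. Within 5 Mb of an end lay 8 of the 38 IAA-only regions, or 21.1% (11.1% to 36.3%), none of the 12 kept regions and 420 lost regions, or 6.37% (5.80% to 6.98%). CTCF had been called at 73.6% of the lost regions near an end and at 55.5% of those elsewhere. A further 25 lost regions lay on 11 unplaced or alternative sequences, 12 of them on 1 sequence assigned to chromosome 9, and 1 lay on the Y chromosome.

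At a few lost sites another antibody was called with IAA. This held for 50 of the 6596, or 0.758% (0.575% to 0.998%), with CTCF at 29, TET1 at 11 and TET2 at 13. Not all of these calls were also present without IAA. Of those of TET2, only the calls at chr5:10082-11740 and at 10499 to 10704 of the mitochondrial genome were. CTCF at chr7:61969244-61969409 was called with IAA alone. The highest of the 50 in fold was chr9:130879983-130880176, at 12.6, where CTCF was called in both conditions. Next was chr17:55038368-55038579, at 10.3, where TET1 was. At these sites MBD3 went uncalled although CTCF or TET1 did not. By contrast, another antibody was called with IAA at 25 of the 38 IAA-only regions, or 65.8%, and at 10 of the 12 kept ones.

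Fold values in the list without IAA were in part discrete. Of the 6608 regions, 1569, or 23.7%, had a fold within 0.0005 of a whole multiple of 0.56124. The commonest value, 5.61, was shared by 253 regions, and 6 values shared by at least 100 regions each covered 1217 regions with folds of 3.93 to 6.73. None of the kept regions had such a value. In the list with IAA no more than 2 regions shared a fold. Lost regions that shared a fold therefore cannot be ordered by it.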

How the data were processed

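The study deposited 1 narrowPeak list per antibody and condition. Per the submitters' processing notes FastQC 0.11.7, Bowtie2 2.3.4, SAMtools 1.9, MACS2 2.1.2 and bedtools 2.25.0 were used with hg19, with no roles given. The control and the read depth are not given in the sources used here. Fold enrichment is a ratio deposited by the authors for each row, and −log10 q is also as deposited by the authors. The joined regions were built with Python 3.11.15 and pandas 2.3.3, keeping the highest fold and −log10 q of a region and the summit of its row of highest −log10 q, and the joining was tested on simulated data. Sharing needed 1 bp. Coordinates are hg19, counted from 1. Samples were grouped by title. No p-value was computed, since regions of pooled lists are not replicates.

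Members, classes and lists were chosen with earlier results of these data known. The named regions were all kept ones, the 10 IAA-only and 10 lost of highest fold, the 10 lost of highest −log10 q, the 5 widest lost and the 5 largest clusters within 10 kb. Others were named after their values were seen, and the CTCF-free stretches, the spacing of summits, the discrete folds and the 100 kb clusters were added after seeing the data. Gene positions and sequences in hg19 were not used here. Alternatives are given in the closing section.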

Additional observations from a re-analysis of the deposited data

How the results depend on the processing

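Of 73 values under alternatives for 11 results, 50 stayed inside the 95% interval of the value reported and 23 fell outside. The share kept, 0.182%, was 0.791% at −log10 q of at least 10, 0% at a fold of at least 5, 0.386% with single rows and 14% between equal numbers of regions of highest −log10 q. The median width of IAA-only regions was 265 bp at −log10 q of at least 10 and 183 bp at a fold of at least 5, and that of lost regions 201 bp at −log10 q of at least 10. The share of IAA-only regions with a neighbour within 10 kb was 47.1% at −log10 q of at least 5, 50% at 10 and 0% at a fold of at least 5. For lost regions it was 9.55%, 8.47% and 10.4% under those limits, 19.6% with single rows, 13.7% after joining regions up to 1 kb apart, and 4.21% and 58.1% with neighbours within 1 and 100 kb. With 50% overlap of both regions, 100% of kept regions lay on chromosomes 1 to 22 and X in place of 75%. The share of lost regions within 5 Mb of an end, 6.40% on those chromosomes, moved to 8.07% with −log10 q no lower than 5 and to 9.78% with 10, and 1.46% within 1 Mb. With 0.5 and 2 Mb around the CTCF-free stretches, chosen after seeing the data, 0.773% and 2.02% of lost regions lay there. The causes were not tested. A fold of at least 5 left no kept region, so their width and chromosomes have no value there. Distances to gene starts and sequence features were not run. No paired analysis was possible because the lists pool the samples of a group.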
